A study of Canis lupus familiaris with 34 samples.

Results

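Osteosarcoma is a malignant tumour of bone-forming cells, and parts of it can lay down cartilage-like (chondroid) matrix. The comparison described here set the 9 dog osteosarcomas with the most RNA of 5 cartilage genes (cartilage-high) against the 9 with the least (cartilage-low). The tumours were chosen by a score, the mean log2(FPKM + 1) of ACAN, HAPLN1, MATN3, COL9A1 and COL11A1, over 28 primary tumours, so that 18 of 28 tumours entered the comparison and 10 lay between. FPKM counts sequenced fragments per transcript length and library size, and 1 FPKM was added before taking log2. The score used measured values, so its 5 genes are given as a description with no test. All other genes with enough signal, 15160 of them, were compared between the groups.

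The series holds 34 RNA sequencing libraries, of which 30 are labelled as primary tumour, 1 as metastasis, 2 as lines of bone tumour (OSCA.8 together with OSCA.78) and 1 as a line of osteoblast tissue (CNOB). All are labelled Golden Retriever, whereas the design text names Rottweilers as well, so that breed within the groups is uncertain. Both groups consist of bone tumour tissue. Treatment, age, sex, tumour site and histological subtype were not analysed here. Libraries DOS.46 and DOS.46.2 were averaged as 1 tumour, and so were DOS.100 and DOS.32, whose deviations from the mean tumour correlated across genes (r = 0.729 and 0.844, against a median of -0.0390 over 435 pairs of libraries). DOS.110 and DOS.115, with r = 0.671, were not averaged, and both lay between the groups. The next pair, DOS.56 and DOS.57 with r = 0.468, was not averaged either, and both are cartilage-high tumours. Nothing in the labels says that the other libraries come from separate dogs, so p-values measure only the spread between these samples, which may be technical.

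Hyaline cartilage is made by chondrocytes. Their matrix is a mesh of type II, IX and XI collagen that holds aggrecan, a large proteoglycan carrying chondroitin sulfate chains, on a hyaluronan backbone. The transcription factor SOX9, with its partners SOX5 and SOX6, switches on the genes of this matrix in mice. Chondrocytes share a mesenchymal origin with osteoblasts, and in the growth plate cartilage is replaced by bone.

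The score ranged from 6.62 in DOS.57 to 4.87 in DOS.6 among cartilage-high tumours and from 3.25 in DOS.24 to 1.66 in DOS.76 among cartilage-low tumours. The cut was not a gap, since DOS.116 stood just outside the high group at 4.78 and DOS.8 just outside the low group at 3.41. HAPLN1, the link protein that ties aggrecan to hyaluronan, had a lowest, median and highest level of 24, 63.7 and 605 FPKM in cartilage-high tumours and 0.248, 1.42 and 7.31 FPKM in cartilage-low tumours. COL9A1, a chain of the type IX collagen that coats cartilage fibrils, had 3.45, 8.49 and 34.8 FPKM in cartilage-high tumours and 0, 0.241 and 2.59 FPKM in cartilage-low tumours. For these 2 genes all 9 cartilage-high tumours lay above all 9 cartilage-low tumours.

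The other score genes overlapped between the groups. Aggrecan ACAN had 30.8, 190 and 490 FPKM (lowest, median and highest) in cartilage-high tumours and 2.53, 24.1 and 114 FPKM in cartilage-low tumours, among which DOS.101 was highest. COL11A1, a chain of type XI collagen, had 84.2, 156 and 633 FPKM in cartilage-high tumours and 0.290, 16.2 and 494 FPKM in cartilage-low tumours. DOS.111, a cartilage-low tumour with 494 FPKM of COL11A1, was above 8 of the 9 cartilage-high tumours for that gene and had the least ACAN of all 28. Matrilin-3 MATN3, an adaptor between fibrils, had 1.71, 3.07 and 5.23 FPKM in cartilage-high tumours and 0.442, 1.55 and 3.37 FPKM in cartilage-low tumours. It varied least of the 5 genes, with an SD over 28 tumours of 0.60 on the log2 scale against 2.32 for HAPLN1, 2.26 for COL11A1, 1.74 for ACAN and 1.52 for COL9A1. Of the 9 cartilage-high tumours, 8 were among the 9 with the most COL9A1, 7 among the 9 with the most HAPLN1, 5 for ACAN and 4 each for MATN3 and COL11A1.

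**Figure D1:**
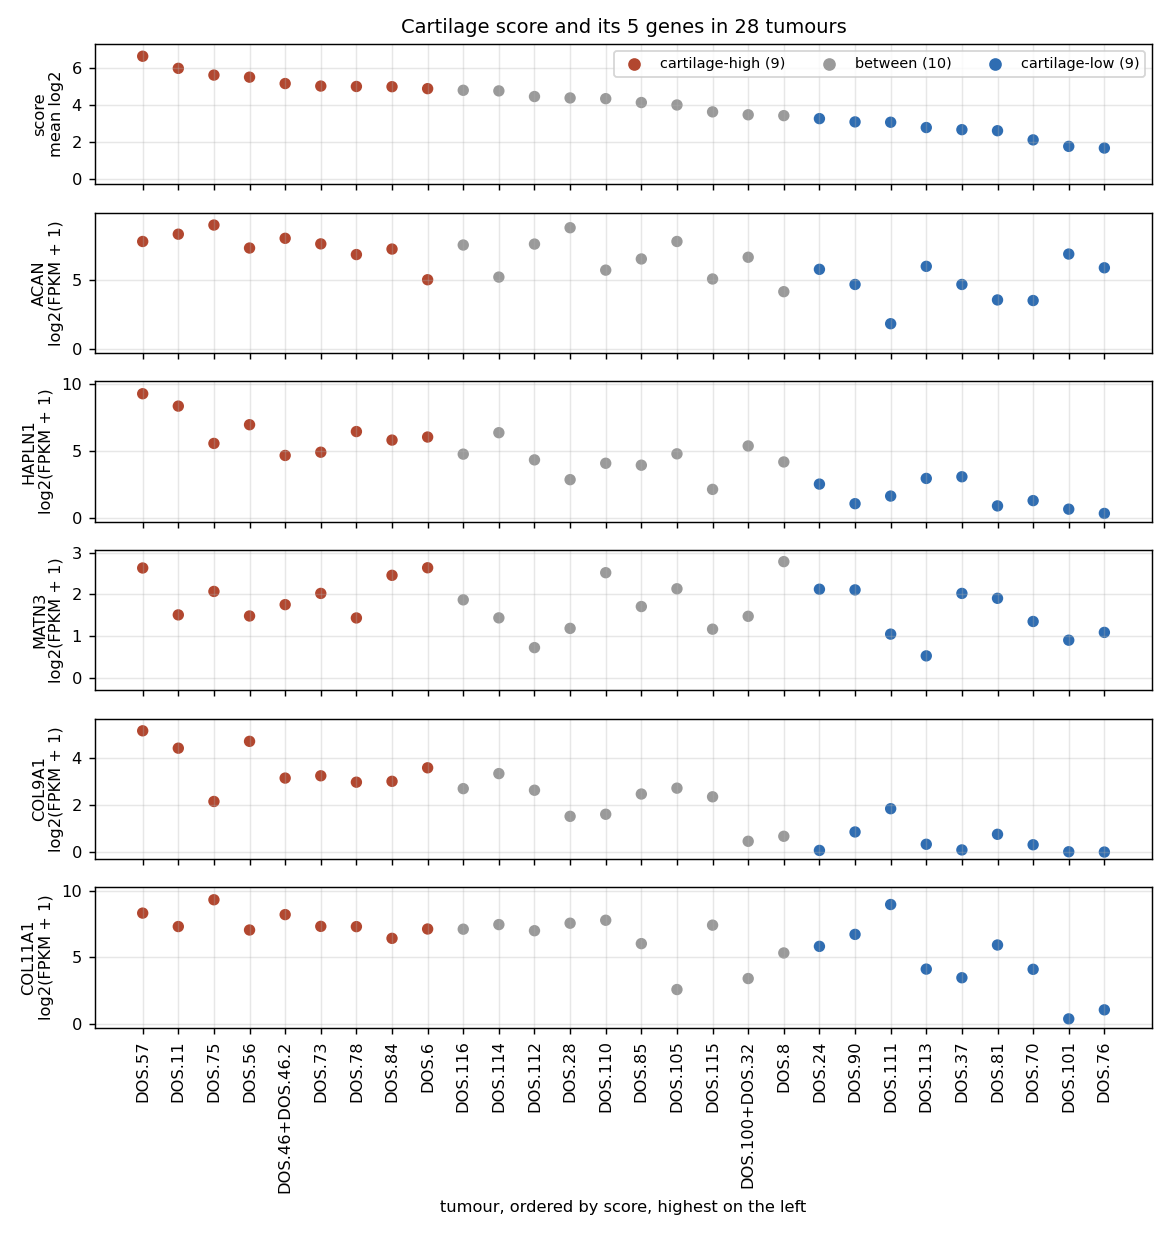
Cartilage score (mean log2 value) and log2(FPKM + 1) of its 5 genes in 28 primary tumours, ordered by score with the highest on the left. Red points are the 9 cartilage-high, grey the 10 between and blue the 9 cartilage-low tumours, and the groups overlap for ACAN, MATN3 and COL11A1.

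Few other genes separated the groups. Of 15160 genes, 18 rose in cartilage-high tumours (limma, Benjamini-Hochberg adjusted p below 0.05), a share of 0.119% of the genes tested, and 0 fell. At an unadjusted p below 0.05 there were 770 higher and 624 lower genes, which is 5.08% and 4.12% of the genes (9.2% in either direction), and 968 and 428 after scaling to the upper quartile. The 18 called genes had log2 fold changes between 1.08 and 3.83, while the median over all genes was -0.01. They include SOX6, the WNT inhibitor FRZB, the matrix proteins POSTN and EDIL3, the growth factor PTN and the WNT receptor FZD9. A total of 5 genes (0.033%) had all 9 cartilage-high tumours above all 9 cartilage-low tumours, and 4 of them were called.

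The calls depended on how the tumours were chosen. All 18 genes stayed higher in cartilage-high tumours in every setting in which they were tested, whereas the number called was 1 with 14 against 14 tumours, 2 with a score of z values, 4 with a score without ACAN and 0 with a score without HAPLN1 (where 558 genes were higher and 400 lower at an unadjusted p below 0.05 by the same limma fit).

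Among regulators of cartilage, SOX6 rose. Its level was lowest 1.38, median 5.02 and highest 7.48 FPKM in cartilage-high tumours and 0.0251, 1.03 and 3.04 FPKM in cartilage-low tumours. In 8 of 9 cartilage-high tumours SOX6 lay above every cartilage-low tumour, the exception being DOS.73. The log2 fold change of SOX6 was 1.46 ± 0.27 (SE, limma adjusted p = 0.0310). It passed in 9 of 19 settings other than those that leave out 1 tumour. The limma adjusted p of SOX6 was 0.0945 with a pseudocount of 0.1 FPKM, 0.0572 without a filter, 0.0621 with 7 against 7 and 0.320 with 14 against 14 tumours, 0.184 with z values, and 0.102 with DOS.56 averaged with DOS.57. With a score computed without ACAN, HAPLN1, MATN3 or COL9A1 it was 0.0762, 0.292, 0.0988 and 0.0565.

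FRZB, a secreted antagonist of WNT ligands known from articular cartilage, had 10.1, 34.3 and 183 FPKM (lowest, median and highest) in cartilage-high tumours and 0.627, 2.99 and 12.1 FPKM in cartilage-low tumours. Its groups overlapped narrowly, since 7 cartilage-high tumours lay above every cartilage-low tumour, and its log2 fold change was 3.08 ± 0.52 (SE, limma adjusted p = 0.0138). FZD9, a Frizzled receptor for WNT ligands, had 4.28, 8.73 and 20.8 FPKM in cartilage-high tumours and 0.856, 1.41 and 3.50 FPKM in cartilage-low tumours. The FZD9 groups did not overlap, and the log2 fold change was 1.72 ± 0.27 (SE, limma adjusted p = 0.00746).

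Secreted and matrix proteins among the calls were POSTN, PTN and EDIL3. Periostin POSTN, a matrix protein of the periosteum and of activated stroma, had 106, 1154 and 1395 FPKM (lowest, median and highest) in cartilage-high tumours and 7.82, 45.7 and 247 FPKM in cartilage-low tumours. Only DOS.6 among cartilage-high tumours fell within the cartilage-low range for POSTN, whose log2 fold change of 3.83 ± 0.62 (SE, limma adjusted p = 0.0114) was the largest of the 18. Its highest level of all 28 tumours, 4432 FPKM, was in DOS.28, which lay between the groups.

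Pleiotrophin PTN, a heparin-binding growth factor, had 183, 643 and 1156 FPKM in cartilage-high tumours and 10.4, 57.8 and 469 FPKM in cartilage-low tumours. A pair of cartilage-low tumours reached into the cartilage-high range, DOS.101 at 469 FPKM, above DOS.73, DOS.6 and DOS.84, and DOS.37 at 187 FPKM, above DOS.73 alone. Its log2 fold change was 3.09 ± 0.60 (SE, limma adjusted p = 0.0476). EDIL3, a secreted protein that binds integrins, had 73.0, 137 and 301 FPKM in cartilage-high tumours and 8.29, 27.5 and 48.7 FPKM in cartilage-low tumours. The EDIL3 groups did not overlap, with a log2 fold change of 2.45 ± 0.36 (SE, limma adjusted p = 0.00746).

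Genes of the membrane and the cytoplasm made up most of the remaining calls. Melanotransferrin MFI2, an iron-binding protein of the cell surface, had 6.45, 10.5 and 27.3 FPKM (lowest, median and highest) in cartilage-high tumours and 1.53, 2.48 and 4.83 FPKM in cartilage-low tumours, without overlap (log2 fold change 1.75 ± 0.27 SE, limma adjusted p = 0.00746). The water channel AQP5 had 10.7, 19.998 and 30.8 FPKM in cartilage-high tumours and 1.68, 5.62 and 10.8 FPKM in cartilage-low tumours. Its groups overlapped only through DOS.6 and DOS.113 (log2 fold change 1.61 ± 0.27 SE, limma adjusted p = 0.0126). CAPN6, a calpain without protease activity that binds microtubules, had 2.45, 10.2 and 53.0 FPKM in cartilage-high tumours and 0, 0.790 and 3.90 FPKM in cartilage-low tumours (2.96 ± 0.48 SE, limma adjusted p = 0.0114). For CAPN6 DOS.73 was the cartilage-high tumour within the cartilage-low range.

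DOK6, an adaptor of receptor tyrosine kinases, had 0.797, 10.1 and 27.8 FPKM in cartilage-high tumours and 0, 0.290 and 2.17 FPKM in cartilage-low tumours, and only DOS.56 of the cartilage-high tumours overlapped with them (2.78 ± 0.42 SE, limma adjusted p = 0.00746). The polarity scaffold LIN7A had 1.24, 6.13 and 31.9 FPKM in cartilage-high tumours and 0, 0.715 and 1.45 FPKM in cartilage-low tumours (2.32 ± 0.39 SE, limma adjusted p = 0.0126). PPP1R1B, an inhibitor of protein phosphatase 1 known from neurons, had 1.67, 11.9 and 65.9 FPKM in cartilage-high tumours and 0.261, 1.58 and 2.91 FPKM in cartilage-low tumours (2.57 ± 0.48 SE, limma adjusted p = 0.0310). For LIN7A and PPP1R1B 8 of 9 cartilage-high tumours lay above every cartilage-low tumour.

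The lipid phosphatase PPAPDC1A (log2 fold change 1.73, limma adjusted p = 0.00781), C16ORF74 (1.78, 0.0332) and LRRC4B, an adhesion protein of synapses (1.52, 0.0369), completed the 15 largest log2 fold changes among called genes with a symbol. A pair of called genes with smaller changes, named here after their values were seen, were LRRTM2, likewise a synaptic adhesion protein (1.14, limma adjusted p = 0.0354), and CPN1, the catalytic subunit of carboxypeptidase N (1.08, limma adjusted p = 0.0310). These 2 genes were low in both groups, with medians of 1.43 and 2.55 FPKM in cartilage-high tumours and 0.208 and 0.650 FPKM in cartilage-low tumours. The smallest adjusted p of all, 3.7e-04, belonged to a gene without a symbol in the files and likewise named after its values were seen, ENSCAFG00000004374, with 16.8, 26.2 and 102 FPKM in cartilage-high tumours and 2.05, 4.39 and 6.60 FPKM in cartilage-low tumours (log2 fold change 2.68 ± 0.31 SE).

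**Figure D2:**
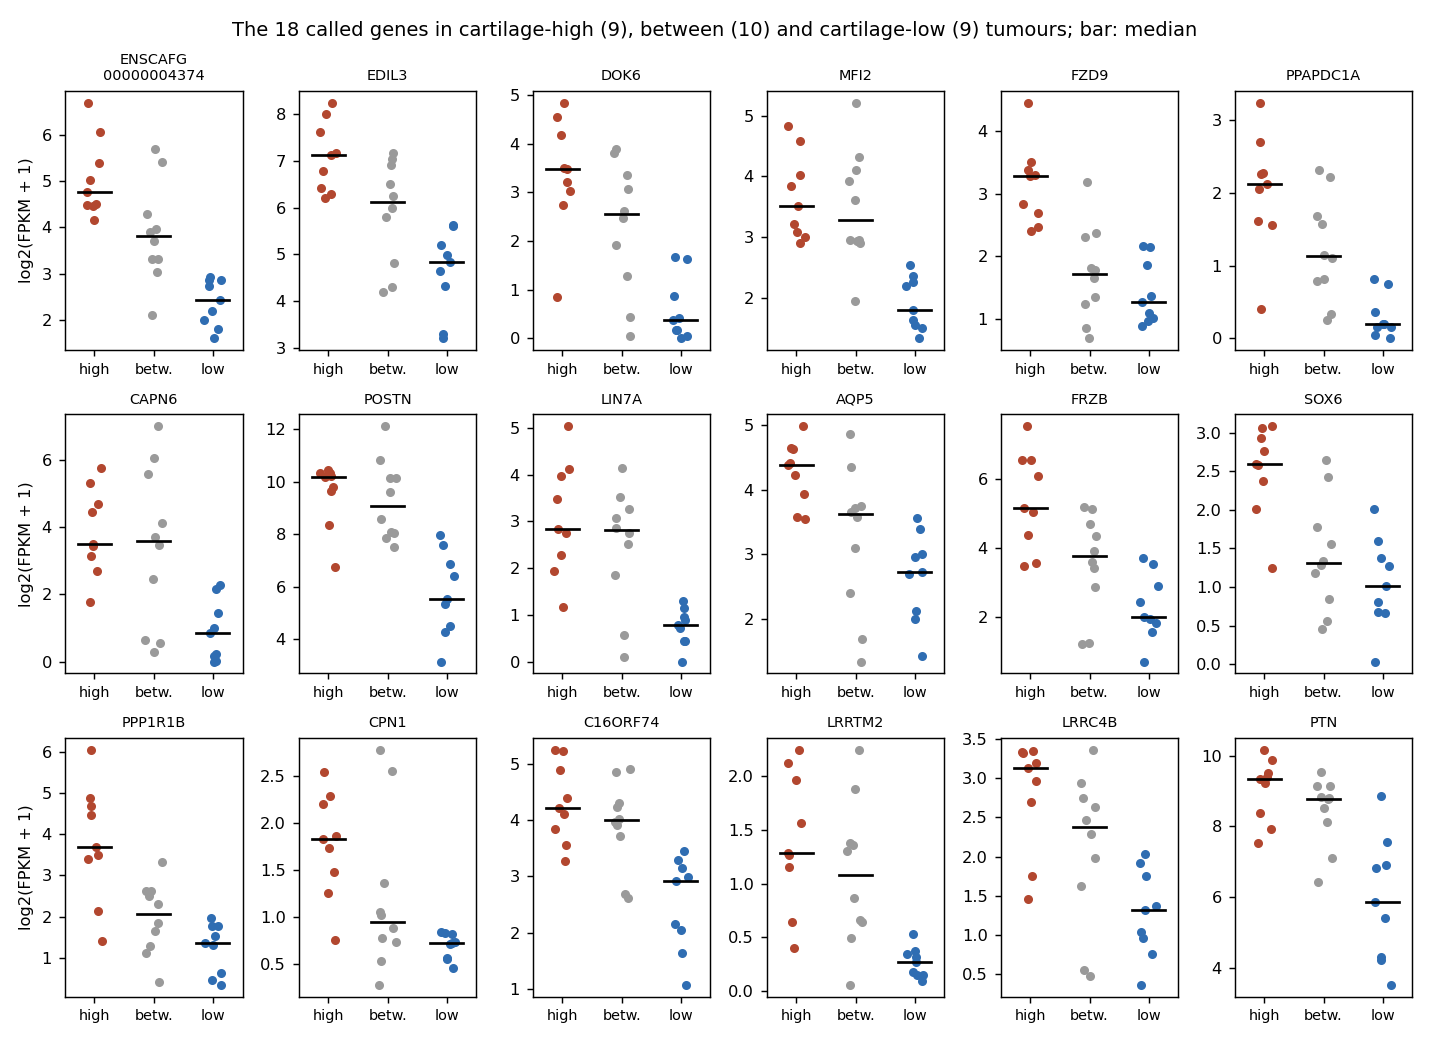
Log2(FPKM + 1) of the 18 called genes in the 9 cartilage-high (red), 10 between (grey) and 9 cartilage-low (blue) tumours, 1 point per tumour, with the median as a bar and a separate vertical scale for each gene. The groups at both ends do not overlap for ENSCAFG00000004374, EDIL3, MFI2 and FZD9.

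The 10 tumours between did not enter the test. For 17 of the 18 called genes their median lay between the medians of both groups, the exception being CAPN6 with 11.1 FPKM between. FZD9 and SOX6 had medians of 2.29 and 1.49 FPKM there, nearer to the cartilage-low tumours, whereas MFI2 (8.99 FPKM), LIN7A (6.02 FPKM) and PTN (441 FPKM) were nearer to the cartilage-high ones.

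Over the 19 settings that did not leave out a single tumour, ENSCAFG00000004374 passed in 17, FZD9 in 16, POSTN in 15, and EDIL3, PPAPDC1A and AQP5 in 14. DOK6 and MFI2 passed in 13, CAPN6 in 12, LIN7A and FRZB in 11, PPP1R1B, C16ORF74 and PTN in 10, SOX6, CPN1 and LRRC4B in 9 and LRRTM2 in 8. PPAPDC1A, CPN1 and LRRTM2 were not tested in the setting that required at least 1 FPKM in 9 of the 18 tumours. For these genes that setting is counted as no pass. With 1 tumour left out at a time, 11 of the 18 genes kept their call in all 18 fits, and the number called was lowest, at 11, without DOS.56 or without DOS.70. The calls of 7 genes ended in some of these fits while the change kept its direction. SOX6 passed without DOS.73, DOS.6, DOS.90, DOS.111, DOS.113, DOS.37 or DOS.101 and missed the threshold without any other tumour (limma adjusted p between 0.0523 and 0.0765). PTN passed without DOS.73, DOS.6, DOS.37 or DOS.101 and missed otherwise (limma adjusted p between 0.0572 and 0.114, log2 fold change between 2.79 and 3.46 in all 18 fits). LRRC4B passed without DOS.57, DOS.6, DOS.90 or DOS.81 (otherwise 0.0502 to 0.103), LRRTM2 without DOS.57, DOS.73, DOS.84 or DOS.111 (otherwise 0.0526 to 0.0855) and CPN1 without DOS.73, DOS.78, DOS.6, DOS.90 or DOS.111 (otherwise 0.0511 to 0.0795, all limma adjusted p). C16ORF74 passed without DOS.75, the tumour of DOS.46 and DOS.46.2, DOS.73, DOS.90, DOS.37, DOS.81 or DOS.101 (otherwise limma adjusted p 0.0528 to 0.0795). PPP1R1B missed without DOS.11, DOS.56, DOS.78, DOS.84, DOS.24, DOS.37, DOS.81, DOS.70 or DOS.76 (limma adjusted p 0.0520 to 0.0795).

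Genes listed as matrix proteins or transcriptional regulators of cartilage were mostly higher in cartilage-high tumours, and 1 of them, SOX6, passed the test. Of 24 listed matrix proteins of cartilage, 21 were in the table and 17 passed the filter on low values. Of these 17, 15 had a log2 fold change above 0, against 48.4% of all genes, and 0 were called by limma. At an unadjusted p below 0.05 there were 8 higher and 0 lower, against 5.08% and 4.12% of all genes. The median log2 fold change of the 17 was 1.51, against -0.01 over all genes tested.

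SCRG1, a small secreted protein of chondrocytes, had 2.201, 33.1 and 536 FPKM (lowest, median and highest) in cartilage-high tumours and 0, 0 and 15.2 FPKM in cartilage-low tumours. Of the cartilage-low tumours, 8 lay below every cartilage-high tumour for SCRG1, and DOS.24 was the exception (log2 fold change 3.80 ± 0.83 SE, limma adjusted p = 0.116). It passed without DOS.24 (log2 fold change 4.23, limma adjusted p = 0.0354), with a pseudocount of 0.1 FPKM (5.99, 0.0228) and with the score as a continuous covariate (3.99, 0.00683). A value of 0 in this table can be a failed estimate, as described below for PGK1. Whether this holds for SCRG1 was not tested.

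CHADL, a leucine-rich protein that binds collagen, had 3.91, 14.6 and 17.4 FPKM in cartilage-high tumours and 0.202, 2.13 and 6.45 FPKM in cartilage-low tumours (log2 fold change 1.79 ± 0.40 SE, limma adjusted p = 0.116). Chondromodulin LECT1, which inhibits vessel growth in cartilage, had 1.21, 11.1 and 31.1 FPKM in cartilage-high tumours and 0, 1.09 and 6.77 FPKM in cartilage-low tumours (1.98, limma adjusted p = 0.209). For each of these 2 genes the groups overlapped, with 6 and 5 cartilage-high tumours above every cartilage-low one.

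Matrilin-4 MATN4 (log2 fold change 1.77, limma adjusted p = 0.234), osteoglycin OGN (1.88, 0.241), CRTAC1 (2.05, 0.336), CILP2 (1.99, 0.356), CLEC3A (1.49, 0.376), PRELP (1.51, 0.543) and the cartilage oligomeric protein COMP (1.53, 0.588) did not pass either. COMP had a median of 21.2 and a highest value of 257 FPKM in cartilage-high tumours, against 7.36 and 104 FPKM in cartilage-low tumours. VIT was 1 of the 2 matrix proteins below 0 (-0.52, limma adjusted p = 0.823). UCMA, a protein of growth plate chondrocytes, was listed at 0 in all 18 tumours.

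Of 18 transcriptional regulators listed for cartilage, which include the ubiquitin ligase WWP2, 15 were in the table and passed the filter. Of these 15, 12 had a log2 fold change above 0, against 48.4% of all genes, at a median of 0.61. SOX6 was the 1 that rose and 0 fell, while 0.119% of all genes rose. At an unadjusted p below 0.05 (limma) 5 of the 15 were higher and 0 lower, against 5.08% and 4.12% of all genes. BARX1, a homeobox factor of joints and jaw, had 13.5, 35.2 and 61.1 FPKM in cartilage-high tumours and 0.183, 3.69 and 33.3 FPKM in cartilage-low tumours, and 6 cartilage-low tumours lay below every cartilage-high one (log2 fold change 2.28 ± 0.63 SE, limma adjusted p = 0.241). The ubiquitin ligase WWP2 (0.86, 0.301), FOXA3 (0.96, 0.337), TRPS1 (0.67, 0.489), SOX8 (0.79, 0.542), PAX1 (0.87, 0.588) and NKX3-2 (0.61, 0.708) did not pass, nor did ZBTB20 at -0.35 (limma adjusted p = 0.631). SOX5, the close relative of SOX6, had medians of 0.250 FPKM in cartilage-high tumours and 0.187 FPKM in cartilage-low tumours (0.21, limma adjusted p = 0.746). SOX9 and the type II collagen gene COL2A1, which define cartilage cells, were not analysed here, because no row carried those symbols.

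Of 6 further cartilage collagen genes, COL27A1 was in the table. It had medians of 14 FPKM in cartilage-high tumours and 19.2 FPKM in cartilage-low tumours, with a log2 fold change of 0.03 (limma adjusted p = 0.988) whose sign turned in several settings. The names cartilage-high and cartilage-low thus stand for the score of 5 genes and not for a cell type.

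**Figure D3:**
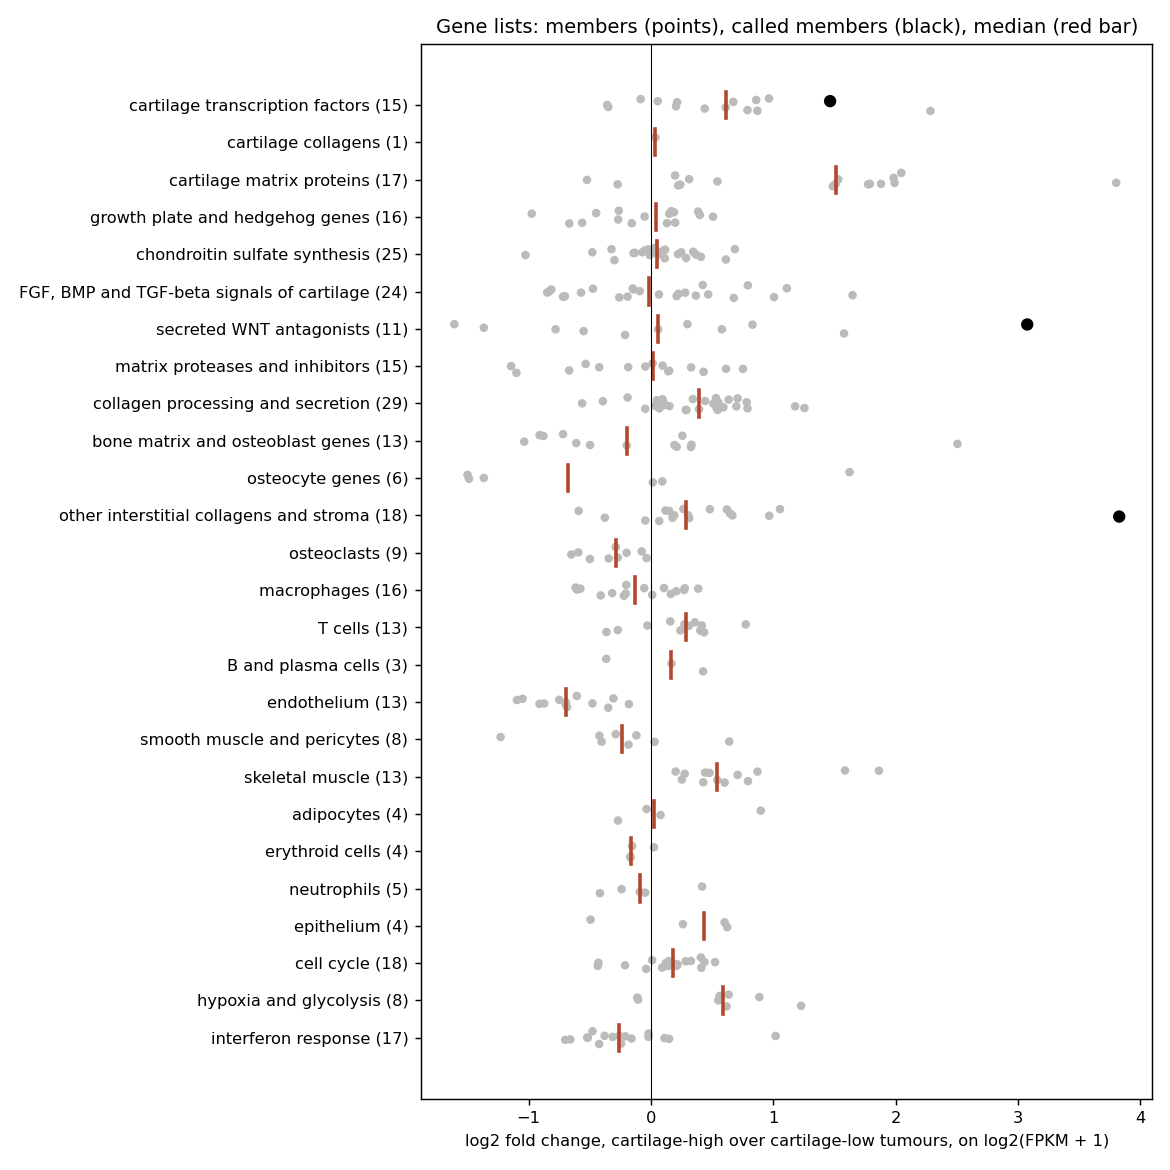
Log2 fold changes (cartilage-high over cartilage-low tumours, on the log2(FPKM + 1) scale) of the members of 26 gene lists, with the number past the filter in brackets. Black points are the called members SOX6, FRZB and POSTN, grey points the others and red bars the median, which was 1.51 for cartilage matrix proteins and -0.69 for endothelium.

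Lists of signals that act on cartilage had medians near 0 on this scale. Of 12 secreted WNT antagonists 11 passed the filter, FRZB rose, 0 fell, and the median log2 fold change was 0.06. Of all genes, 0.119% rose. Among the 11 antagonists 6 were above 0 and 5 below. At an unadjusted p below 0.05 (limma) there were 3 higher and 0 lower, against 5.08% and 4.12% of all genes. DKK3 had medians of 68.0 FPKM in cartilage-high tumours and 12.4 FPKM in cartilage-low tumours (1.58 ± 0.52 SE, limma adjusted p = 0.352), and SFRP5 stood at 0.83 (0.375). WIF1 and SOST stood at -1.61 and -1.36 (limma adjusted p = 0.687 and 0.724), with SOST, the osteocyte inhibitor of WNT signalling, at up to 18.8 FPKM in cartilage-high tumours and up to 429 FPKM in cartilage-low tumours.

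Of 32 genes of FGF, BMP and TGF-beta signalling, 24 passed the filter and 0 were called by limma. At an unadjusted p below 0.05 there were 4 higher and 1 lower, against 5.08% and 4.12% of all genes. The median log2 fold change of the 24 was -0.01, and 0.02 after scaling to the upper quartile. FGFR3, the receptor that restrains chondrocyte growth, had medians of 26.2 FPKM in cartilage-high tumours and 11.5 FPKM in cartilage-low tumours (1.11 ± 0.51 SE, limma adjusted p = 0.524). FGF2 (0.79, 0.369), BMP5 (1.65, 0.396), the BMP receptor BMPR1B (0.47, 0.505), BMP7 (1.01, 0.564), the inhibitory SMAD7 (-0.81, 0.511) and FGFR1 (-0.72, 0.616) did not pass.

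Growth plate and hedgehog genes mark the passage of cartilage to bone. Of 20 listed, 16 passed the filter and 0 were called by limma. In either direction 0 had an unadjusted p below 0.05, against 9.2% of all genes. The log2 fold changes of the 16 had a median of 0.04, and of -0.04 after quantile normalisation. The collagenase MMP13, made by hypertrophic chondrocytes and osteoblasts, had medians of 293 FPKM in cartilage-high tumours and 477 FPKM in cartilage-low tumours (-0.97 ± 0.74 SE, limma adjusted p = 0.687). MEF2D (-0.67, 0.557), MEF2C (-0.56, 0.631) and the hedgehog transducer SMO (0.51, 0.663) did not pass.

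The machinery that builds chondroitin sulfate was close to the background. Of 34 listed genes 25 passed the filter, 0 were called by limma, and the median log2 fold change was 0.05. At an unadjusted p below 0.05 there were 1 higher and 1 lower, against 5.08% and 4.12% of all genes. UGP2, which makes UDP-glucose, had 30.3, 37.3 and 79.0 FPKM in cartilage-high tumours and 21.1, 26.3 and 31.9 FPKM in cartilage-low tumours. Of the cartilage-high tumours 8 lay above every cartilage-low tumour for UGP2 (0.69 ± 0.18 SE, limma adjusted p = 0.209). The sulfotransferase CHST15 stood at -1.02 (0.487) and the epimerase gene DSEL at 0.61 (0.551).

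Collagen processing and secretion gave 29 of 35 members past the filter, 25 of them above 0, against 48.4% of all genes. Their median was 0.39 and 0 were called by limma. At an unadjusted p below 0.05 there were 9 higher and 1 lower, against 5.08% and 4.12% of all genes. The lysyl hydroxylase PLOD1 had medians of 259 FPKM in cartilage-high tumours and 168 FPKM in cartilage-low tumours (0.78 ± 0.24 SE, limma adjusted p = 0.294), and the prolyl hydroxylase subunit P4HB had 1035 FPKM in cartilage-high tumours and 608 FPKM in cartilage-low tumours (0.70, 0.294). The prolyl hydroxylase family member P3H3 (1.25, 0.371) and the chaperone FKBP10 (0.71, 0.418) were likewise not called, and the coat protein SEC24C was lower in cartilage-high tumours without passing (-0.39, 0.478).

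Matrix proteases and inhibitors gave 15 of 20 members past the filter, 0 called by limma and a median of 0.01 (-0.06 after quantile normalisation). At an unadjusted p below 0.05 there were 1 higher and 1 lower, against 5.08% and 4.12% of all genes. ADAMTS5, the enzyme that cuts aggrecan in mouse joints, had 3.37, 5.33 and 11.3 FPKM in cartilage-high tumours and 5.93, 16 and 30.1 FPKM in cartilage-low tumours. In 5 cartilage-low tumours ADAMTS5 lay above every cartilage-high tumour (-1.10 ± 0.28 SE, limma adjusted p = 0.209). MMP2 stood at 0.75 (0.520) and TIMP2 at 0.61 (0.567).

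Bone and stroma genes were compared as context. Of 13 bone matrix and osteoblast genes past the filter (18 listed) 0 were called by limma. The median log2 fold change was -0.20, and -0.61 after quantile normalisation. At an unadjusted p below 0.05 there were 1 higher and 0 lower, against 5.08% and 4.12% of all genes. Of these 13 genes 6 were above 0 and 7 below, and tenascin TNN had the largest rise. TNN had medians of 199 FPKM in cartilage-high tumours and 51.9 FPKM in cartilage-low tumours (2.51 ± 0.95 SE, limma adjusted p = 0.436). The 6 osteocyte genes past the filter (8 listed) had a median of -0.67 and 0 calls by limma (0 at an unadjusted p below 0.05). Of them 3 were above 0 and 3 below, with FGF23 the highest at 1.62 (limma adjusted p = 0.551). Of 25 other collagens and stroma genes 18 passed the filter, 15 of them above 0, against 48.4% of all genes. Their median was 0.28, and POSTN was the 1 that rose.

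Markers of other cell types held 0 calls by limma in any list, with 6 genes higher and 3 lower at an unadjusted p below 0.05. Over all genes tested, 5.08% were higher and 4.12% lower at that threshold, 9.2% in either direction. In bulk tissue, fewer cells of a type and less RNA per cell cannot be told apart. All 13 endothelial genes past the filter (16 listed) had a log2 fold change below 0, whereas 48.4% of all genes were above 0. Their median was -0.69, and 2 were lower at an unadjusted p below 0.05. The lowest, median and highest summed level of the 13 genes in the table was 130, 372 and 825 FPKM in cartilage-high tumours and 157, 503 and 2884 FPKM in cartilage-low tumours. The vessel receptor TIE1 had medians of 8.50 FPKM in cartilage-high tumours and 13.3 FPKM in cartilage-low tumours (-1.09 ± 0.48 SE, limma adjusted p = 0.511). None of the endothelial markers was at 0 in any of the 18 tumours, and the part of endothelium in the results above was not tested.

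All 13 skeletal muscle genes past the filter (20 listed) had a log2 fold change above 0, against 48.4% of all genes. Of them 5 were higher at an unadjusted p below 0.05, against 5.08% of all genes, and their median was 0.54. With a pseudocount of 0.1 FPKM in place of 1 that median was 1.56, while the median of cartilage matrix proteins was 1.89. Their summed level, over 14 genes in the table, had a lowest, median and highest value of 12.6, 49.7 and 139 FPKM in cartilage-high tumours and 6.66, 14.1 and 44.2 FPKM in cartilage-low tumours. MYL1, MYLPF, TNNT1, TNNT3, MB, CASQ1 and ACTN2 were at 0 in at least 1 of the 18 tumours, and TNNC2 stood at 0.48 (limma adjusted p = 0.386). The part of muscle tissue in the results above was not tested.

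Osteoclast genes (9 past the filter of 13 listed) were all below 0 as deposited, whereas 48.4% of all genes were above 0. Their median was -0.29, and 8 of 9 were below 0 after quantile normalisation or scaling to the upper quartile. Their summed level had medians of 145 FPKM in cartilage-high tumours and 166 FPKM in cartilage-low tumours, and the proton pump subunit TCIRG1 stood at -0.50 (limma adjusted p = 0.641). Medians of the remaining cell type lists were -0.13 for macrophages (16 genes, SPI1 at -0.58 with limma adjusted p = 0.564), 0.28 for T cells (13 genes, CD6 at -0.36 with 0.631), 0.17 for B and plasma cells (3 genes, MZB1 at 0.43 with 0.556) and -0.23 for smooth muscle and pericytes (8 genes, NOTCH3 at -1.23 with 0.446). The shortest lists had medians of 0.02 for adipocytes, or -0.05 after quantile normalisation (4 genes, CIDEA at 0.90 with limma adjusted p = 0.474), -0.16 for erythroid cells (4 genes, EPB42 at -0.15 with 0.754), -0.09 for neutrophils (5 genes, CSF3R at -0.42 with 0.656) and 0.43 for epithelium (4 genes, CLDN4 at -0.49 with 0.567). Each gene named had the smallest p of its list, and CD6 and CLDN4 went against most of theirs. Above 0 were 10 of 13 T cell genes, 3 of 4 for epithelium, 7 of 16 for macrophages and 2 of 3 for B and plasma cells. The counts were 2 of 8 for smooth muscle and pericytes, 2 of 4 for adipocytes, 1 of 4 for erythroid cells and 1 of 5 for neutrophils.

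Cell cycle genes (18 past the filter, median 0.18, MCM3 at -0.43 with limma adjusted p = 0.660), genes of hypoxia and glycolysis (8, median 0.59, HK2 at 0.89 with 0.511) and interferon response genes (17, median -0.26, IFIT3 at -0.70 with 0.565) held 0 calls. Unlike MCM3, 14 of the 18 cell cycle genes were above 0, as were 6 of the 8 hypoxia genes and 3 of the 17 interferon genes. The unadjusted p was below 0.05 for 2 hypoxia genes, both higher, and for 0 genes of the other 2 lists. Over all genes 5.08% were higher and 4.12% lower at that threshold. PGK1, a glycolytic gene that cells use throughout the body, was listed at 0 in all 18 tumours, so that a value of 0 in this table can be a failed estimate.

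Differences between the groups in library measures did not pass a test, which does not show that the libraries were alike. Summed FPKM had a median of 615079 in cartilage-high tumours and 570362 in cartilage-low tumours, and the number of genes above 0 was 17095 ± 302 in cartilage-high tumours and 17033 ± 376 in cartilage-low tumours (mean ± SD, n = 9 each). Exact two-sided permutation tests over 48620 splits gave p = 0.274 and 0.704 for these measures, 0.833 for the share of the 10 most abundant genes and 0.106 for the upper quartile (0.548, 0.833, 0.833 and 0.426 after adjustment over 4 measures). Sequencing depth in reads is unknown. The value of 1 fragment, read from the spacing of low values and set relative to the median library, lay between 0.869 and 1.23 in cartilage-high tumours and between 0.912 and 2.02 in cartilage-low tumours.

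The libraries outside the primary tumours were read for the same genes, without a test. The score was 5.39 in the metastasis DOS.6M, 3.75 in OSCA.78, 3.60 in OSCA.8 and 3.19 in the osteoblast culture. The metastasis had more COL9A1, at 89.8 FPKM, than any primary tumour, and 8.61 FPKM of SOX6. The lines and the culture had between 0.0140 and 0.0657 FPKM of COL9A1 and between 0.885 and 1.37 FPKM of SOX6, and POSTN was between 1.34 and 21.4 FPKM in all 4 libraries. FRZB, in contrast, was at 34.2 FPKM in OSCA.78, 33.9 FPKM in OSCA.8 and 154 FPKM in the osteoblast culture, within the range of cartilage-high tumours.

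**Figure D4:**
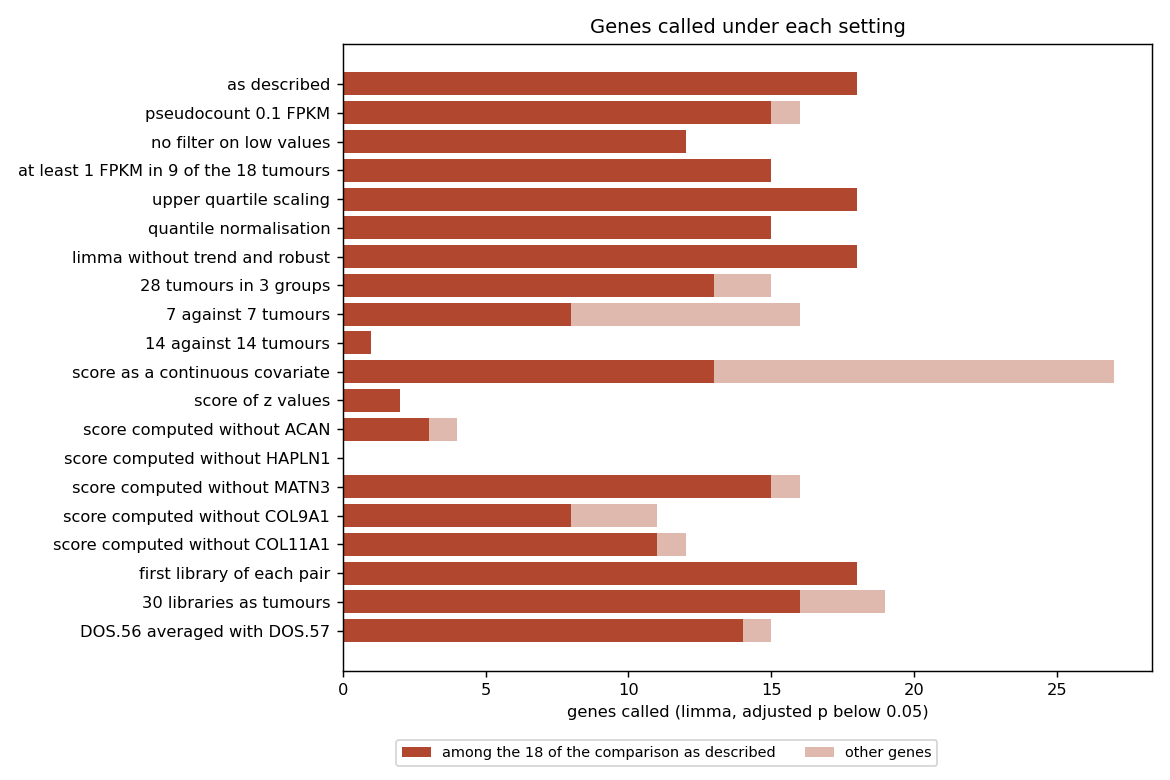
Number of genes called (limma, adjusted p below 0.05) as described and under each alternative setting, without the fits that leave out 1 tumour. Dark bars count genes among the 18 of the comparison as described, pale bars other genes, and the count is 0 with the score computed without HAPLN1.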

How the data were processed

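RNA sequencing values of 34 dog libraries were used. The authors deposited 1 table of 23988 genes without a named unit, read here as FPKM, since Cufflinks 2.2.1 reports that unit. The tools named, per the submitters' processing notes, are FastQC 0.11.2, TopHat2 2.0.13 and that program, with canFam3 as assembly. The notes used here do not state parameters or annotation, or what was masked. A gene needed 1 FPKM or more in 2 or more libraries (15165 passed), and the 5 score genes were left out of the test. The reference table belongs to another assembly, so no coordinates are printed, and 9653 of the genes carry no symbol.

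Log2(FPKM + 1) was compared between 9 and 9 tumours with limma (version 3.58.1, R 4.3.3, linear fit with a robust eBayes with an intensity trend, two-sided test, Benjamini-Hochberg over 15160 genes, threshold 0.05), after a test on simulated data. The simulation drew independent normal values and changed only genes with less than the median spread. It does not show how the test performs for correlated genes or for genes of wider spread. Fold changes on the log2(FPKM + 1) scale understate the change of low genes. Library measures were compared by exact permutation (Python 3.11.15, numpy 2.4.6, scipy 1.17.1, pandas 2.3.3, matplotlib 3.10.9). The value of 1 fragment was estimated from values under 0.3 FPKM, taking their ratios as fractions of integers no larger than 6 (log2 tolerance 0.02). Lists are described by counts and medians. Named are members of the cartilage lists, of other lists up to 3 called members or the 1 with the smallest p, and the 15 largest changes in each direction among called genes with a symbol. The members and lists were chosen with earlier results of these data known. Alternatives changed the pseudocount, filter, scaling, options, group size, score, the averaged pairs and the tumours left out.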

Additional observations from a re-analysis of the deposited data

Results flagged for a closer look

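Single tumours stood apart from the other 8 of their group in 13 of 180 groups of values checked. The rule was a gap to the nearest tumour above 0.493 of the group's range, on log2(FPKM + 1) for genes. Chance alone gives about 1 in 20 for normally distributed values, which values near 0 FPKM need not be. In cartilage-high tumours, DOS.75 was above the rest for TRPS1 (gap 0.503 of the range, 91.3 FPKM against a median of 22.2 in the others), COL27A1 (0.563, 106 against 12.8 FPKM) and CILP2 (0.499, 207 against 12.2 FPKM), and for the share of its sum in the 10 most abundant genes (0.532, 34.1% against a median of 14%). DOS.73 was above the other cartilage-high tumours for the replication helicase subunit MCM3 (0.555, 80.3 against 27.5 FPKM).

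In cartilage-low tumours, DOS.111 was above the rest for COL9A1 (0.537, 2.59 against 0.150 FPKM), BMP5 (0.552, 17.9 against 0.299 FPKM) and EPB42 (0.789, 1.51 against 0.0143 FPKM). DOS.24 was above them for SCRG1 (0.769, 15.2 FPKM against a median of 0) and SOX5 (0.648, 1.25 against 0.168 FPKM). DOS.113 was above them for FOXA3 (0.663, 2.88 against 0.190 FPKM) and below them for TRPS1 (0.587, 7.55 against 18.3 FPKM). DOS.90 was above them for CILP2 (0.514, 30.1 against 1.68 FPKM).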

How the results depend on the processing

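The 18 genes called higher became 1 with 14 against 14 tumours (AQP5), 2 with a score of z values, 4, 0, 10 and 11 with a score computed without ACAN, HAPLN1, COL9A1 and COL11A1 (16 without MATN3), and 11 to 19 with 1 tumour left out. The cause was not tested, and these scores exchanged between 0 and 2 tumours of a group. The 0 genes called lower became 1 with 7 against 7 tumours, with a score without COL11A1 and with 30 libraries as tumours (HES4 each time), 1 without COL9A1 (NRBP2), 3 with the score as a continuous covariate, and 0 to 2 with 1 tumour left out. These genes were named after their values were seen. Under the other planned settings between 12 and 24 genes were called higher, and 15 with DOS.56 averaged with DOS.57 (r = 0.468), a setting chosen after seeing the data. COL27A1 turned to -0.053 with 7 against 7 tumours, -0.014 with the continuous score, -0.024 with z values, -0.11 without HAPLN1 and -0.021 with 30 libraries, and lay between -0.30 and 0.21 with 1 tumour left out. With a pseudocount of 0.1 FPKM, medians moved to 0.18 for FGF, BMP and TGF-beta genes, 0.10 for growth plate genes, 0.12 for WNT antagonists and adipocytes, 0.13 for proteases, 0.54 for B cells, 0.80 for epithelium, -0.34 for erythroid cells, -0.17 for neutrophils and -0.40 for interferon genes. EPB42 turned to 0.10 with a score without ACAN. Of 63 named genes that were not called, 59 passed in none of 37 settings. Apart from SCRG1, those that passed were CHADL with 30 libraries as tumours (adjusted p = 0.0362), MATN4 with a score without COL9A1 (0.0465) and DKK3 with the continuous score (0.0371). The difference in genes above 0 turned to -43.6 with 7 against 7 tumours, and that in the share of the 10 most abundant genes to -0.386 percentage points with 14 against 14 (100000 permutations). The 14 against 14 p-values are permutation tests, and no difference in a library measure passed. Without read counts, depth limits what can be said of genes near 1 FPKM. No paired analysis was possible because the labels give the groups compared no shared replicate numbers.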

Other observations

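Genes lower in cartilage-high tumours came nearest to the threshold at HES4 and MOB3B (these and POP7 were named after their values were seen). HES4, a transcriptional repressor of the HES family, had 2.05, 3.12 and 11.3 FPKM (lowest, median and highest) in cartilage-high tumours and 4.87, 10.8 and 16.1 FPKM in cartilage-low tumours (log2 fold change -1.25 ± 0.27 SE, limma adjusted p = 0.0963). MOB3B had 2.75, 6.001 and 9.46 FPKM in cartilage-high tumours and 6.63, 13.7 and 24 FPKM in cartilage-low tumours (-1.24 ± 0.27 SE, limma adjusted p = 0.0998), and 7 of the 9 cartilage-low tumours lay above every cartilage-high tumour. POP7, a subunit of ribonuclease P, was the gene without overlap that was not called, with 47.5 to 115 FPKM in cartilage-high tumours and 20.5 to 45.8 FPKM in cartilage-low tumours (0.80 ± 0.19 SE, limma adjusted p = 0.165).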
